A study of Mus musculus with 2 samples.

Results

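Steap3, C1ql2 and Marco are the nearest protein-coding genes below En1 on mouse chromosome 1, and the bins that hold their annotated starts were used as viewpoints on a capture Hi-C contact map. They are 3 of the 25 coding genes with a start on the covered map, whose starts fall in 24 bins of 10 kb. All contacts of the 3 start bins with every other bin of the covered map were followed. In short, each of them made fewer contacts with the En1 domain than its distance predicts, at 0.612 to 0.750 of the expected read pairs. At the same distances away from En1 the value was lower still for Steap3 (0.613) and C1ql2 (0.679), and higher for Marco (1.36). The 41 bins of their own domain had a median of 0.661 with the En1 domain, so the deficit was not particular to the gene starts. Domain limits were called as minima of contact on this same map, so low contact across them was partly fixed in advance. Each of the 3 start bins made about 2 times the expected contacts with the next domain beyond, which holds Insig2, Ccdc93, Htr5b and Ddx18. The C1ql2 bin has 0.523 of the median total of read pairs. An expectation that took no account of coverage gave it 1.06 with that domain, with an interval that holds 1, and 0.439 with the En1 domain.

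The series asks how En1 is kept active while the limb forms. The map came from limbs of mouse embryos at embryonic stage E10.5, genotype wild type, and the labels name no edited allele and no agent. Fore- and hindlimbs were pooled, dissociated with trypsin and fixed in 2% PFA before digestion with DpnII, ligation and capture on SureSelect probes. The labels give 2 samples of this 1 group, both with replicate number 2 in their titles, and the deposited values are 1 merged map. There was therefore no spread between samples, no p-value and no second condition, and every interval below covers counting error only. The labels name no molecular identifiers that would count molecules, so the counts are of read pairs. Whole limbs hold many cell types, and a contact made in few cells cannot be told apart from one made seldom in all cells. The map carries no expression values, so the labelled tissue could not be checked against marker genes here.

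Steap3 encodes an endosomal ferrireductase that reduces iron taken up with transferrin, and it is best known from red cell precursors. C1ql2 encodes a secreted C1q-like protein that acts at synapses, and Marco encodes a scavenger receptor of macrophages. En1 encodes Engrailed-1, a homeobox factor that binds DNA and patterns the ventral side of the limb bud. Chromosomes fold into domains within which loci meet more often than across the limits between them, and limits are often held by the factor CTCF together with cohesin. In Hi-C, contact falls steeply with distance along the chromosome, so each count was set against the count expected at that distance. A value of 1 for observed/expected (the ratio used throughout) means that the read pairs equalled this expectation, which also takes the coverage of both bins into account.

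All coordinates are on mm9, the same assembly as NCBIM37. Steap3 (ENSMUSG00000026389.10, chr1:122087334-122169282) lies on the minus strand, and its start at 122169282 falls in the 10 kb bin that ends at 122170000. C1ql2 (ENSMUSG00000036907.8, chr1:122237159-122239748) lies on the plus strand and starts in the bin chr1:122230001-122240000. Marco (ENSMUSG00000026390.1, chr1:122371115-122401661) lies on the minus strand and starts at 122401661, in the bin chr1:122400001-122410000. The starts lie 330 kb (Steap3), 262 kb (C1ql2) and 97.3 kb (Marco) below the En1 start at 122498995. Between Marco and En1 lies a boundary, the deepest minimum of the insulation score (the contact across a bin between the 150 kb on each side), at -1.45 on the log2 scale relative to the median bin. This boundary bin begins 39.0 kb below the En1 start. It is 291 kb from the Steap3 start, 223 kb from the C1ql2 start and 58.3 kb from the Marco start.

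The 3 start bins hold different kinds of sequence. The Steap3 bin lies mostly inside the gene, with 9282 bases in the gene body, of which 908 are exonic and 106 coding. The C1ql2 bin holds the whole gene of 2590 bases and 7410 bases outside it. Only 1661 bases of the Marco bin lie in the gene, and the other 8339 lie upstream of its start. The 250 bases directly upstream of each start are shown because DpnII cuts at GATC, so that a read pair reaches a start only through the fragments around it. They were read from NCBIM37 on the strand of the gene, 5′ to 3′, and GATC is in capitals.
Steap3 (chr1:122169283-122169532, minus strand): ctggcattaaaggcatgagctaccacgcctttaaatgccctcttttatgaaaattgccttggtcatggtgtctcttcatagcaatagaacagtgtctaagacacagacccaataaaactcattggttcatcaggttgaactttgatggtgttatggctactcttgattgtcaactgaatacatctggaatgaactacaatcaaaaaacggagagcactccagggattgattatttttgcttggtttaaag
C1ql2 (chr1:122236909-122237158, plus strand): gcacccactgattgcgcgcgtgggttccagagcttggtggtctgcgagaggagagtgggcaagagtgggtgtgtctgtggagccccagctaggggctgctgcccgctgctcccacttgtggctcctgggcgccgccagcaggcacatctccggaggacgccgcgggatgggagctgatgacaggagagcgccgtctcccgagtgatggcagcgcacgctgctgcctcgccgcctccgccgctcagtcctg
Marco (chr1:122401662-122401911, minus strand): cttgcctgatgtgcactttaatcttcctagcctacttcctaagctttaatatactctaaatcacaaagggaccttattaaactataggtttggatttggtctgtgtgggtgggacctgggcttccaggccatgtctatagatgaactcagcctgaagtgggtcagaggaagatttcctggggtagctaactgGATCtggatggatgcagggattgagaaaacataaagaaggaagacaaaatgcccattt
The Steap3 and C1ql2 stretches hold 0 GATC sites and the Marco stretch holds 1. The C1ql2 stretch has 20 CG dinucleotides and 68.8% G and C, against 2 and 39.2% for Steap3 and 0 and 43.6% for Marco.

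The sites are counted here because they set how finely a bin can be read. The start bin of Steap3 holds 21 DpnII sites, that of C1ql2 holds 18 and that of Marco holds 33, against a median of 25 over the 422 bins used. Within the Steap3 bin the sites are uneven: the 5 kb part with the annotated start has 3 sites and 3384 read pairs, and the lower 5 kb part has 18 sites and 16467 read pairs. Most Steap3 read pairs at 10 kb therefore come from the lower part, which also holds the starts of other Steap3 coding transcripts. All 5 coding transcripts of Steap3 start inside the same 10 kb bin. The C1ql2 and Marco bins are also read mostly through the 5 kb part without the annotated start, which lies upstream of the gene. For C1ql2 that part has 7941 read pairs against 4703 in the part with the start, and for Marco 25849 against 9627. The C1ql2 start lies on a fragment of 85 bp, and the Marco start on one of 1684 bp.

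The merged map held 6484654 read pairs, with 1714 to 55287 per 10 kb bin used and a median of 23885.5. The Steap3 bin had 19561 read pairs in all (exact Poisson 95% interval 19288 to 19837), the C1ql2 bin 12485 (12267 to 12706) and the Marco bin 33106 (32750 to 33465). C1ql2 was thus the least covered viewpoint, the 49th lowest of 422 bins, while Steap3 ranked 138th and Marco 337th. Read pairs with other covered bins numbered 16743 for Steap3, 11806 for C1ql2 and 26793 for Marco, and these are the denominators of the shares below.

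The En1 domain is the stretch of 620 kb between this boundary and the next, from 29.0 kb below the En1 start to 591 kb above it, and En1 is the only coding gene that starts in it. Its limits were called on this same map as minima of contact across a bin. Contacts with the En1 domain were below expectation for all 3 genes. Steap3 had 1498 read pairs with the domain where 1998 were expected, a ratio of 0.750 (95% interval 0.712 to 0.789). C1ql2 had 1140 where 1524 were expected, a ratio of 0.748 (0.705 to 0.793). Marco, the gene nearest to En1, had 3709 where 6062 were expected, and its ratio was the lowest at 0.612 (0.592 to 0.632). Each interval lies below 1, while the En1 start bin contacted its own domain at a ratio of 1.14 (1.12 to 1.16).

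The ratios of Steap3 and C1ql2 could not be told apart at this depth, since Steap3 over C1ql2 was 1.00 (0.927 to 1.08). Steap3 exceeded Marco by 1.23 times (1.15 to 1.30) and C1ql2 exceeded Marco by 1.22 times (1.14 to 1.31). The order of these ratios changed without the correction for coverage. With an expectation from distance alone the ratios were 0.439 for C1ql2, 0.669 for Steap3 and 0.857 for Marco, so that all remained below 1 but Marco was then the highest. As a share of its contacts, Steap3 spent 8.95% (Wilson 95% interval 8.52 to 9.39) on the En1 domain, where 12.2% was expected. C1ql2 spent 9.66% (9.14 to 10.2), where 14.3% was expected, and Marco 13.8% (13.4 to 14.3), where 22.4% was expected. The share of Marco was the largest of the 3, as the expectation was for the closest gene, and also the one furthest below its expectation. As a quotient of observed over expected share, Marco had 0.619, and 0.633 with distance alone. The quotients of C1ql2 and Steap3 stayed at or above 0.665 and 0.669 under every alternative, so by share Marco was the lowest in both settings.

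The same distances on the lower side served as a comparison. For Steap3 the mirror image of the En1 domain, at equal distances below the gene, had a ratio of 0.613 (0.575 to 0.652), which is lower than towards En1. For C1ql2 it was 0.679 (0.635 to 0.725), also below the ratio of 0.748 towards En1. For Marco the mirror stretch had 7452 read pairs and a ratio of 1.36 (1.33 to 1.40), against 0.612 towards En1. Only for Marco, then, was contact lower towards En1 than away from it at matched distances, and its mirror stretch covers most of the domain in which the 3 genes themselves lie.

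**Figure D1:**
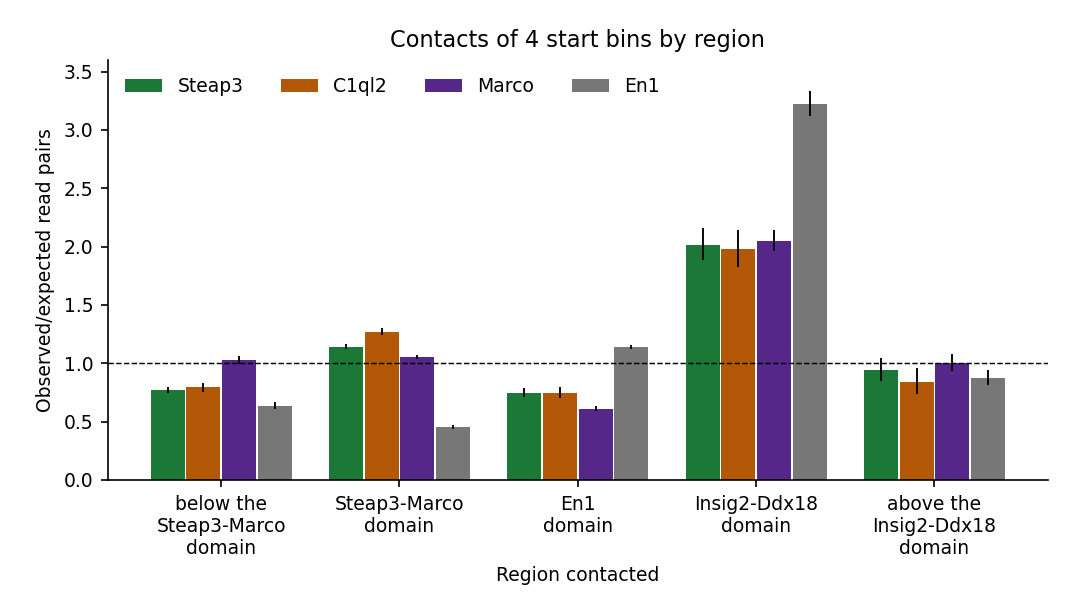
Observed/expected read pairs (vertical axis, a ratio from 0) of the start bins of Steap3, C1ql2, Marco and, for comparison, En1 with 5 regions along the chromosome; bars are values of the merged map and lines are exact Poisson 95% intervals, which cover counting error only. The 3 genes lie at 0.612 to 0.750 in the En1 domain and near 2 in the Insig2-Ddx18 domain, where En1 lies at 3.23.

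The 3 genes share 1 domain of 410 kb, called the Steap3-Marco domain here, which ends at the boundary bin below En1. Its lower limit, at chr1:122040001-122050000, was a shallow minimum of the insulation score at -0.45, with a prominence of 0.249 where 0.2 was required. Steap3 made 64.8% of its contacts in it (64.1 to 65.5; 58.0% expected), C1ql2 67.9% (67.0 to 68.7; 59.2% expected) and Marco 60.5% (59.9 to 61.1; 56.7% expected). The ratios were 1.14 for Steap3 (1.12 to 1.16), 1.27 for C1ql2 (1.24 to 1.30) and 1.05 for Marco (1.04 to 1.07). All were above 1, with C1ql2 the highest. The limits of the domain were called from contacts on this same map, so an excess inside them was partly fixed in advance. The excess of C1ql2 depended on the bin size: in 5 kb bins its ratio was 0.967 (0.931 to 1.00), although its share of 62.8% was still above the 61.2% expected. Towards the low end of the map, below the domain, Steap3 had a ratio of 0.771 (0.744 to 0.799), C1ql2 0.795 (0.758 to 0.833) and Marco 1.03 (0.995 to 1.06).

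Beyond the En1 domain the values turned. With the Insig2-Ddx18 domain, chr1:123100001-123470000, Steap3 had 873 read pairs where 433 were expected, a ratio of 2.02 (1.89 to 2.16). C1ql2 had 621 where 314 were expected, a ratio of 1.98 (1.83 to 2.14), and Marco 2014 where 983 were expected, a ratio of 2.05 (1.96 to 2.14). The 3 ratios could not be told apart: Steap3 over C1ql2 was 1.02 (0.919 to 1.13), Steap3 over Marco 0.985 (0.909 to 1.07) and C1ql2 over Marco 0.966 (0.881 to 1.06). At the same distances on the lower side the ratios were 0.840 (Steap3), 0.846 (C1ql2) and 0.825 (Marco), so the excess lay on the En1 side. With the expectation from distance alone C1ql2 fell to 1.06 with an interval that holds 1 (0.981 to 1.15). Steap3 fell to 1.67 (1.56 to 1.78), while Marco rose to 2.58 (2.47 to 2.70). That expectation leaves the low total of the C1ql2 bin, 0.523 of the median, uncorrected. Above this domain, from 123470001 to the end of the map, the ratios returned to 0.942 for Steap3 (0.847 to 1.05), 0.841 for C1ql2 (0.735 to 0.959) and 1.01 for Marco (0.936 to 1.08).

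The shares spent on the Insig2-Ddx18 domain were 5.21% for Steap3 (2.64% expected), 5.26% for C1ql2 (2.95% expected) and 7.52% for Marco (3.62% expected). En1 had a higher ratio with this domain, at 3.23 (3.12 to 3.33). Relative to En1, Steap3 reached 0.626 (0.580 to 0.674) of that ratio, C1ql2 0.613 (0.563 to 0.668) and Marco 0.635 (0.601 to 0.671). With the coverage correction, the excess of contacts with this domain was therefore present in all 3 genes at a lower level than in En1.

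In windows of 100 kb the contact of each gene dropped at the boundary bin below En1. That bin was called as a minimum of contact across it on this same map, so low contact across it was partly fixed in advance. The 150 kb scored on each side hold the Marco bin but not the Steap3 and C1ql2 bins. Steap3 went from a ratio of 1.47 (1.38 to 1.55) in the 100 kb below the bin to 0.548 (0.487 to 0.614) in the 100 kb above it, so that above over below was 0.374 (0.328 to 0.425). C1ql2 went from 1.51 (1.42 to 1.60) to 0.6669 (0.591 to 0.750), or 0.442 (0.386 to 0.505). Marco, whose own bin lies inside the lower window, went from 0.897 (0.879 to 0.914) to 0.387 (0.361 to 0.414), or 0.431 (0.401 to 0.463). Seen from En1 the step ran the other way, from 0.372 below to 0.737 above. The boundary bin itself stood at expectation for all 3 viewpoints, with ratios of 1.07 for Steap3 (0.728 to 1.52), 1.10 for C1ql2 (0.716 to 1.61) and 0.933 for Marco (0.792 to 1.09).

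**Figure D2:**
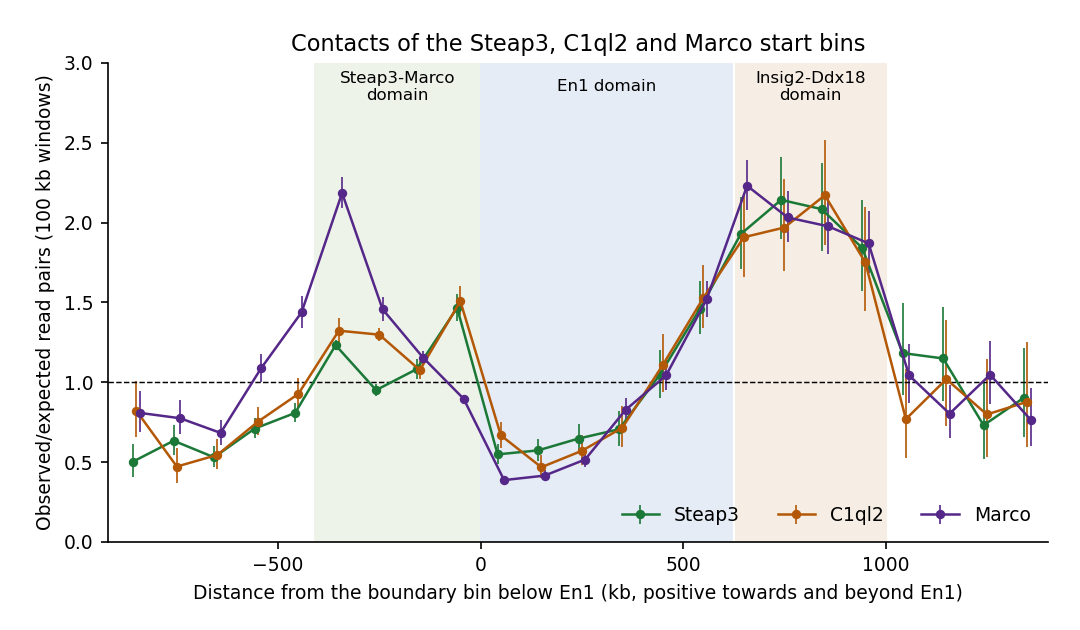
Observed/expected read pairs of the Steap3, C1ql2 and Marco start bins in 100 kb windows (vertical axis) by distance from the boundary bin below En1 in kb (horizontal axis); points are values of the merged map, lines exact Poisson 95% intervals, shaded bands the domains, and points are shifted sideways slightly for sight. All 3 lines fall to 0.387 to 0.6669 in the first window above the boundary and climb to between 1.75 and 2.23 in the 4 windows from 600 to 1000 kb.

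Across the En1 domain the deficit was not even. Steap3 stood at 0.548 in the first 100 kb above the boundary, 0.573 in the next, then 0.647 and 0.705, and it reached 1.04 (0.903 to 1.202) at 400 to 500 kb and 1.46 (1.30 to 1.64) at 500 to 600 kb. C1ql2 ran through 0.6669, 0.467, 0.570 and 0.715 to 1.11 (0.939 to 1.30) and 1.53 (1.34 to 1.74) in the same windows. Marco ran through 0.387, 0.415, 0.515 and 0.827 to 1.04 (0.949 to 1.14) and 1.52 (1.41 to 1.63). The first 4 windows were thus below expectation for each gene, the interval of the fifth held 1 for each, and the sixth was above it for each. The En1 start lies in the first window, and the distal end of the domain faces the Insig2-Ddx18 domain.

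In single 10 kb bins, Steap3 was below expectation in 45 of the 62 bins of the En1 domain, C1ql2 in 43 and Marco in 45. The expectation is a mean per distance, and the share of all bin pairs of the map below 1 was not counted. These counts therefore have no background. Of the 31 bins nearest to the boundary 30 were below 1 for Steap3, 29 for C1ql2 and 31 for Marco, against 15, 14 and 14 of the 31 farther bins. The median bin ratio was 0.744 for Steap3, 0.730 for C1ql2 and 0.627 for Marco. Going up from the boundary, the first bin whose lower bound exceeded 1 was the same for the 3 genes, chr1:122910001-122920000, which begins 450 kb above the boundary bin's start. Across these 62 bins the ratios correlated with a Pearson r of 0.852 between Steap3 and Marco, 0.759 between C1ql2 and Marco and 0.747 between Steap3 and C1ql2. With the En1 start bin as the other viewpoint, over 61 bins, r was 0.665 for Steap3, 0.527 for C1ql2 and 0.687 for Marco. By Spearman rank correlation the values with En1 were 0.862, 0.704 and 0.920. Those within the 3 genes were 0.803 (Steap3 and Marco), 0.664 (C1ql2 and Marco) and 0.661 (Steap3 and C1ql2). The order of the bins was thus not particular to the 3 genes. These correlations are descriptions across bins that share partner coverage and libraries, and neighbouring bins are not independent.

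The contact of each gene with the En1 start bin, chr1:122490001-122500000, was also low. Steap3 had 33 read pairs with it where 60.0 were expected, a ratio of 0.550 (0.379 to 0.772). C1ql2 had 35 where 48.0 were expected, a ratio of 0.729 (0.508 to 1.01), whose interval holds 1. Marco had 102 where 268 were expected, a ratio of 0.381 (0.310 to 0.462). Bins around the En1 start gave nearly the same values, 0.537 for Steap3, 0.781 for C1ql2 and 0.365 for Marco, so the start bin did not stand out from its surroundings. Whether single intervals held 1 depended on the setting. For C1ql2 the interval lay below 1 with 1 more bin on each side of the viewpoint, at 0.729 (0.623 to 0.848), with the expectation from the whole map, at 0.695 (0.484 to 0.966), and with distance alone, at 0.472 (0.329 to 0.656). For Steap3 it held 1 in 5 kb bins, at 0.342 (0.0415 to 1.24).

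The strongest partner of the En1 start, by the lower bound of the ratio at 100 kb or more, was a bin 580 kb above it, near the distal end of the En1 domain. Steap3 had 29 read pairs with that bin, a ratio of 1.61 (1.08 to 2.32), C1ql2 19, a ratio of 1.39 (0.834 to 2.16), and Marco 69, a ratio of 1.68 (1.31 to 2.13). The surrounding bins were no lower, at 1.87 (Steap3), 2.02 (C1ql2) and 1.93 (Marco). For none of the 3 genes was the bin a local peak at 10 kb. The values for this bin moved with the setting: in 5 kb bins Steap3 had 0.953 (0.197 to 2.79), Marco 1.45 (0.830 to 2.36) and C1ql2 2.67 (1.496 to 4.41). With distance alone they were 1.47 (0.986 to 2.12) for Steap3, 2.39 (1.86 to 3.03) for Marco and 0.838 (0.505 to 1.31) for C1ql2.

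Counted by side over all distances at 10 kb, the interval of Steap3 held the expected share, while C1ql2 and Marco had fewer contacts than expected on the En1 side. Steap3 had 48.4% of its contacts at higher coordinates (47.6 to 49.1; 47.9% expected), C1ql2 47.2% (46.3 to 48.1; 51.5% expected) and Marco 43.6% (43.0 to 44.2; 48.7% expected). The direction for C1ql2 and Marco depended on the setting: in 5 kb bins C1ql2 had 58.4% where 52.8% was expected and Marco 54.0% where 50.5% was expected. For C1ql2 it also turned without the bins nearer than 50 kb, to 56.2% where 52.5% was expected. There Steap3 had 58.0% on the higher side (57.0 to 58.9; 51.7% expected). As a quotient of observed over expected share, Steap3 stood at 1.09 (1.08 to 1.10) with 1 more bin on each side of the viewpoint and at 0.962 (0.947 to 0.977) with distance alone, so its balance also depended on the setting.

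Divided by distance, the sides separated the genes more clearly. At 50 to 300 kb Marco had 28.1% of its contacts on the higher side (27.1 to 29.1; 53.0% expected), while Steap3 had 58.0% (56.7 to 59.3; 50.9% expected) and C1ql2 54.8% (53.3 to 56.3; 53.8% expected). On the higher side this range falls for Marco mainly into the near part of the En1 domain, and for Steap3 and C1ql2 mainly into the Steap3-Marco domain. From 300 kb to 1 Mb the higher side held more than expected for each gene, 60.5% against 54.0% for Steap3, 61.5% against 54.2% for C1ql2 and 55.2% against 52.1% for Marco. Both sides were below expectation there for Steap3, at 0.822 above and 0.630 below, and both were above it for Marco, at 1.33 and 1.17.

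Within their domain the 3 start bins did not contact one another equally. Steap3 and Marco, 240 kb apart, shared 137 read pairs where 76.2 were expected, a ratio of 1.80 (1.51 to 2.12). C1ql2 and Marco, 170 kb apart, shared 90 where 68.0 were expected, a ratio of 1.32 (1.06 to 1.63), and Steap3 and C1ql2, 70 kb apart, shared 78 where 90.2 were expected, a ratio of 0.864 (0.683 to 1.08). The most distant pair thus had the highest ratio and the closest pair the lowest. With an expectation from distance alone the C1ql2 and Marco value fell to 0.847 (0.681 to 1.04) and the Steap3 and C1ql2 value to 0.363 (0.287 to 0.453). The Steap3 and Marco ratio ran from 1.53 to 1.95 over the alternatives tried, and its lower bound fell to 0.785 in 5 kb bins, 0.989 with the lower 5 kb of the Steap3 bin, 1.44 with the expectation from the whole map and 1.48 with distance alone.

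The windows around these starts show the same 2 ends of the domain. Marco had its highest ratio below the boundary, 2.19 (2.09 to 2.28), in the window chr1:122060001-122160000, which holds most of the Steap3 gene body. Steap3 and C1ql2 had ratios of 1.47 and 1.51 in the 100 kb next to the boundary, which hold the Marco start. The window between C1ql2 and Marco, chr1:122260001-122360000, was nearer to expectation, at 1.08 for Steap3 (1.02 to 1.14), 1.08 for C1ql2 (1.02 to 1.13) and 1.15 for Marco (1.11 to 1.198).

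Each start bin was also paired with the start bins of the other 24 coding genes, which fall in 23 bins. Enriched means here that a pair is 100 kb or more apart, holds 10 read pairs or more and has a lower bound of the ratio above 1.5. The pair of Steap3 and Marco met this rule narrowly, with a lower bound of 1.51 that the 4 settings named above took below 1.5. Beside Marco, Steap3 was enriched with Ccdc93, which belongs to a complex that recycles endosomal cargo, at 36 read pairs and a ratio of 2.77 (1.94 to 3.83). It was enriched with Insig2, which holds the sterol sensor machinery in the endoplasmic reticulum, at 29 read pairs and 2.75 (1.84 to 3.94). The fourth was Clasp1, which binds the growing ends of microtubules, at 14 read pairs and 3.22 (1.76 to 5.40). That last contact spans 1880 kb, rests on few read pairs, and had 0 read pairs in 5 kb bins. With the lower 5 kb of the Steap3 bin, which supplies most of its read pairs, set against the 5 kb bins of the other starts, none of these 3 met the bound of 1.5: Ccdc93 had 1.96 (0.976 to 3.499), Insig2 2.298 (1.10 to 4.23) and Clasp1 3.30 (1.21 to 7.19). Against the whole 10 kb start bins the same 5 kb gave 2.44 (1.61 to 3.56) for Ccdc93 and 2.59 (1.62 to 3.92) for Insig2. With distance alone Insig2 at 1.92 (1.29 to 2.76) and Clasp1 at 2.37 (1.29 to 3.97) also missed it, and Ccdc93 kept it at 2.68 (1.88 to 3.71).

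Marco was enriched with Steap3 and with Ccdc93, at 79 read pairs and a ratio of 2.88 (2.28 to 3.59). C1ql2 met the rule with none of the starts, the highest being Gm11102 at 9 read pairs and a ratio of 2.90 (1.32 to 5.50). None of the pairs met the rule for depletion, which asks for at least 10 expected read pairs and an upper bound under the inverse of 1.5 from 100 kb on, and En1 is nearer to Marco than 100 kb. Marco and Mki67ip, a nucleolar protein gene near the low end of the map, shared 0 read pairs where 4.81 were expected, which allows up to 3 read pairs. With 1 more bin on each side of the Marco start the same ratio was 1.46.

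**Figure D3:**
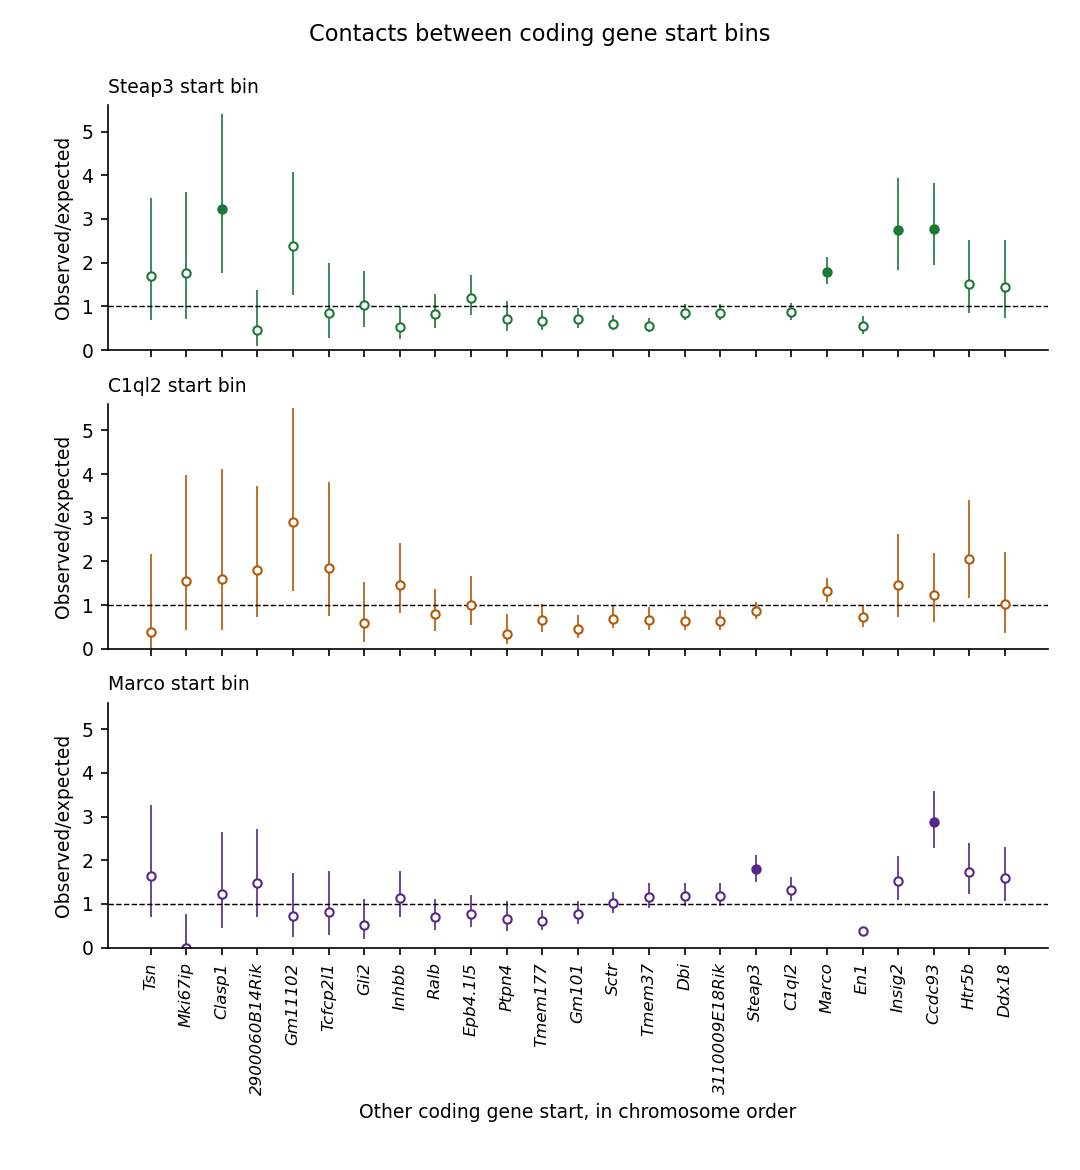
Observed/expected read pairs (vertical axis) between the start bins of Steap3, C1ql2 and Marco and the start bin of each other coding gene in chromosome order (horizontal axis); lines are exact Poisson 95% intervals and filled points meet the rule for enrichment. Steap3 is filled at Clasp1, Marco, Insig2 and Ccdc93, Marco at Steap3 and Ccdc93, and C1ql2 nowhere; Dbi and 3110009E18Rik share a bin and a value.

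On the whole map 5.88% of the bin pairs far enough apart and with enough read pairs for this rule were enriched. Against this background Steap3 had 18 enriched partners of 238 (7.56%), C1ql2 13 of 167 (7.78%) and Marco 31 of 299 (10.4%). For Steap3 14 of the 18 lay at higher coordinates, for C1ql2 11 of the 13, and for Marco 17 of the 31. The Insig2-Ddx18 domain held 11 of the Steap3 partners among 34 bins that could meet the rule, 6 of the C1ql2 partners among 32 and 15 of the Marco partners among 37. The domain shared by the genes held 1 of 22 for Steap3, 3 of 22 for C1ql2 and 12 of 26 for Marco. In the En1 domain 1 of 60 bins was enriched for Steap3, 2 of 54 for C1ql2 and 1 of 59 for Marco.

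The counts of enriched partners moved with the settings. In 5 kb bins the counts were 1 for Steap3, 8 for C1ql2 and 20 for Marco, and with a threshold of 2 in place of 1.5 they were 0, 2 and 9. With the expectation from distance alone they were 11 of 238 for Steap3, 1 of 167 for C1ql2 and 60 of 299 for Marco. The share over the whole map was worked out for the main setting only, so these alternative counts have no background beside them. Steap3 and Marco shared 7 enriched bins, which is 38.9% of the Steap3 list and 22.6% of the Marco list. C1ql2 and Marco shared 5 (38.5% and 16.1%), and Steap3 and C1ql2 shared 2 (11.1% and 15.4%). The overlap between lists of other bins was not worked out, so these overlaps have no background. The Insig2-Ddx18 domain alone held 11 partners of Steap3, 6 of C1ql2 and 15 of Marco, and lists that gather in 1 domain overlap more readily. A single bin was enriched for all 3, the upper limit of the En1 domain at chr1:123090001-123100000. Its ratio was 2.18 for Steap3 (1.53 to 3.001), 2.37 for C1ql2 (1.60 to 3.38) and 2.68 for Marco (2.19 to 3.23).

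Depleted partners were 6.32% of all bin pairs of the map that could meet that rule. The members had shares near this background, 15 of 223 for Steap3 (6.73%), 9 of 164 for C1ql2 (5.49%) and 20 of 275 for Marco (7.27%), and most of those of C1ql2 and Marco lay in the En1 domain. It held 8 of the 9 for C1ql2 and 19 of the 20 for Marco. For Steap3 it held 8 of the 15 (of 60 bins tested), and the other 7 (of 116 bins tested) lay below the Steap3-Marco domain. The Steap3-Marco domain held 0 for each.

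The 5 strongest partners of each gene, ranked by the lower bound of the ratio, are descriptions of bins chosen for high values. Values given for them in the 5 kb bin of a start count a part of the same read pairs, so they are no separate check. For Steap3 the first was chr1:123190001-123200000, 1030 kb away and 0.930 kb from the Insig2 gene, with 48 read pairs and a ratio of 2.69 (1.99 to 3.57). The next were chr1:123320001-123330000, which holds the Ccdc93 start, at 2.77, and chr1:123340001-123350000 inside Ccdc93 at 2.74 (1.92 to 3.79). The fourth, chr1:120530001-120540000, lies 1630 kb below Steap3 in Tcfcp2l1, a transcription factor gene, with 17 read pairs and a ratio of 3.25 (1.89 to 5.21). The fifth was the Insig2 start bin. In the 5 kb bin of the annotated Steap3 start these partners had 6 to 9 read pairs each, so that they carry wide intervals at that resolution. The first had 2.14 (0.859 to 4.40) there. The bin in Tcfcp2l1 fell to 1.97 (1.37 to 2.74) with 1 more bin on each side of the viewpoint.

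For C1ql2 the strongest partner was chr1:123230001-123240000, directly upstream of Insig2 and 1000 kb away, with 37 read pairs and a ratio of 3.29 (2.31 to 4.53). Bins at 123270001, 123280001 and 123290001, between Insig2 and Ccdc93, followed with ratios of 3.23, 2.84 and 3.197. The remaining one lay inside the own domain, chr1:122430001-122440000, 28.3 kb from Marco, with 136 read pairs and a ratio of 2.26 (1.90 to 2.68). In the 5 kb bin of the C1ql2 start the same 5 partners had ratios of 2.11 to 3.49, each with a lower bound above 1. These read pairs are among those by which the partners were chosen, so high values there were partly fixed in advance. With the expectation from distance alone they were lower, at 2.18 (1.54 to 3.01) for 123230001, 1.65 (1.08 to 2.42) for 123270001, 1.74 (1.15 to 2.53) for 123280001, 1.39 (0.863 to 2.13) for 123290001 and 1.47 (1.24 to 1.74) for 122430001. The bin at 123290001 also fell to 1.78 (1.35 to 2.32) with 1 more bin on each side of the viewpoint, and that at 122430001 to 1.58 (1.32 to 1.86) with the expectation from the whole map.

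For Marco the strongest partner was chr1:123120001-123130000, 720 kb away in the Insig2-Ddx18 domain, with 155 read pairs and a ratio of 3.26 (2.77 to 3.82). The second was chr1:122080001-122090000 at the other end of the own domain, with 189 read pairs and a ratio of 2.77 (2.39 to 3.19). That bin overlaps 3110009E18Rik and holds the 3′ end of Steap3. The others were chr1:123160001-123170000 at 3.26 (2.34 to 4.42), the Ccdc93 start bin and the upper limit of the En1 domain. In the 5 kb bin of the Marco start the first had 35 read pairs and a ratio of 2.68 (1.86 to 3.72), and the second 57 and 3.08 (2.33 to 3.99). The third, at 123160001, had 7 read pairs and 2.08 (0.836 to 4.28) there, and 1.64 (1.18 to 2.22) with distance alone. The first rose to 5.70 (4.84 to 6.68) with distance alone.

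Inside the En1 domain the strongest partners lay at its distal end, with 1 exception. The bin chr1:123060001-123070000 was among the first 3 for each gene, with 64 read pairs and a ratio of 2.29 for Steap3 (1.77 to 2.93), 47 and 2.24 for C1ql2 (1.64 to 2.98) and 109 and 1.75 for Marco (1.44 to 2.11). For Steap3 the next were the bins at 123080001 (1.91) and 123020001 (1.64), and for C1ql2 the third was that at 123020001 (1.96). For Marco the bins at 123080001 (1.96, 1.53 to 2.47) and 123040001 (60 read pairs, 1.96, 1.49 to 2.52) ranked before it. In the 5 kb bin of the Steap3 start the ratio with the bin at 123060001 was 2.08 (0.995 to 3.82), and with distance alone that of Marco rose to 3.72 (3.05 to 4.49). The exception was chr1:122910001-122920000 for C1ql2, at 30 read pairs and 2.299 (1.55 to 3.28), 680 kb from its start. It fell to 1.39 (1.12 to 1.72) with 1 more bin on each side of the viewpoint and to 1.05 (0.707 to 1.496) with distance alone.

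The sequence under these bins was searched on both strands for CCNCNAGNNGGCNG, 14 letters resembling the core that CTCF is known to bind. Over the 422 bins it occurred 29 times, in 27 bins (6.40%). None of the 3 start bins holds a match (0 of 3), the boundary bin below En1 holds 0, and of the 19 named partner bins 1 does. The matches of the Steap3-Marco domain, all on the plus strand, and the match in the strongest Marco partner are shown with 15 bases on each side, on the strand of the match with the pattern in capitals.
Steap3-Marco domain, within the Steap3 gene (chr1:122093915-122093958, plus strand): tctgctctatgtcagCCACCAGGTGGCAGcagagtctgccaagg
Steap3-Marco domain, within the Steap3 gene (chr1:122140776-122140819, plus strand): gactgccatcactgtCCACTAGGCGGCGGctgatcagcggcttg
Steap3-Marco domain, near the boundary bin (chr1:122447516-122447559, plus strand): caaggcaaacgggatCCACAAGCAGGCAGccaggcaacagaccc
Marco partner bin at 123120001 (chr1:123123694-123123737, plus strand): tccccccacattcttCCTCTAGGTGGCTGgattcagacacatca
Of the 5 matches in the Insig2-Ddx18 domain, 4 lie on the minus strand and the one in the Marco partner on the plus strand. A match to these letters is a description of the sequence, and binding was not measured here.

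The 3 start bins were also ranked among all 41 bins of their domain. The ratio with the En1 domain ranged over these bins from 0.494 to 1.10 with a median of 0.661, and 39 of the 41 were below 1. The same count was not made for all bins of the map. From the lowest, Marco ranked 14th, C1ql2 28th and Steap3 29th. The boundary between the domains was called as a minimum of contact on this same map, so low values here were partly fixed in advance. Within the Steap3-Marco domain low contact with the En1 domain was not particular to the gene starts, which did not lie at the extremes of the range. With the Insig2-Ddx18 domain all 41 bins were above 1, from 1.46 to 2.99 with a median of 1.85. For this domain too no count was made over all bins of the map. The starts ranked 28th (C1ql2), 29th (Steap3) and 32nd (Marco) from the lowest. The highest value belonged to the bin at 122450001, next to the boundary bin.

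**Figure D4:**
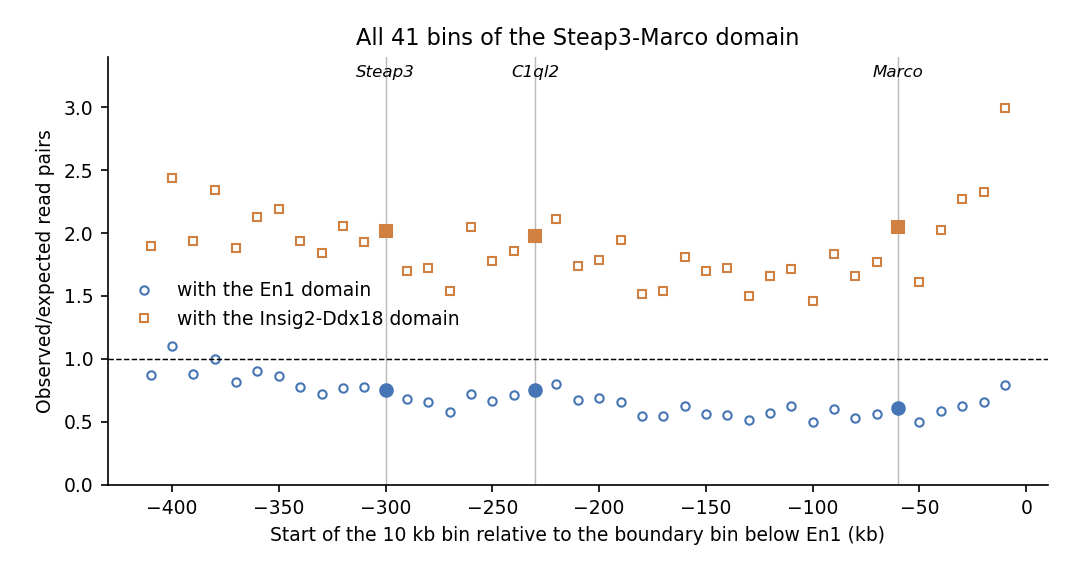
Observed/expected read pairs (vertical axis) of all 41 bins of the Steap3-Marco domain with the En1 domain (circles) and the Insig2-Ddx18 domain (squares), by the start of each bin relative to the boundary bin below En1 in kb (horizontal axis); filled symbols are the gene start bins. Circles lie between 0.494 and 1.10 and squares between 1.46 and 2.99, with the 3 gene starts inside both ranges.

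Among the 24 start bins of coding genes, the ratio with the En1 domain placed Marco 4th from the lowest, C1ql2 11th and Steap3 12th. Tmem177 was the lowest at 0.540 (0.503 to 0.579), and Gm101, Ddx18 and Marco followed at 0.584, 0.604 and 0.612. The intervals of Ddx18 (0.571 to 0.638) and Marco overlap, as do those of C1ql2, Steap3 and the Dbi start bin at 0.743 (0.705 to 0.782). The En1 start bin ranked 18th at 1.14. Deficits of this size were thus also present at other starts on the map, and at 0.612 Marco had the lowest ratio of the 3 nearest genes.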

How the data were processed

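Chromatin contacts were measured by capture Hi-C in 2 wild-type limb samples, which the authors deposited as 1 merged map. The authors deposited raw counts of read pairs per bin pair, not normalized, and a matrix-balanced signal (KR in their names), at 5 and 10 kb among other sizes. Per the submitters' processing notes, Bowtie2 2.3.4.1, Juicer 1.7.6 and SAMtools were used with the mm9 build. HiCUP and a mapping quality minimum of 30 are named in the deposited file names. The positions of the capture probes were not used here.

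From these values, with Python 3.11.15, NumPy 2.4.6 and SciPy 1.17.1, each start bin (GENCODE M1 on NCBIM37) was set against every other bin from 120180001 up. In 10 kb bins, the mean KR value of all pairs at a distance, multiplied by both bins' balancing factors, gave the expected count. Boundaries were minima of an insulation score over 150 kb on each side with a prominence of at least 0.2, settings taken from earlier work on this map. They gave the Steap3-Marco domain (122050001 to 122460000), the boundary bin below En1 (122460001 to 122470000), the En1 domain (122470001 to 123090000) and the Insig2-Ddx18 domain (123100001 to 123470000). Depletion used an upper bound below 0.667. Bin pairs that are not listed counted as 0, and bins with no KR value were left out. Intervals at 95% are exact Poisson for observed/expected, Wilson for shares and exact conditional binomial for ratios of 2 counts. Only the ratio with the En1 domain and its interval were tried on simulated data. These were Poisson counts drawn around the same expectation with planted ratios, so their spread was the one that the intervals assume. Shares, boundaries, the step and the partner rules were not simulated. Sequences were read with pysam 0.24.0.

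Named were the members, En1, coding genes whose start met the enrichment rule, the 5 strongest partners of each member and the 3 strongest in the En1 domain. Some other starts (Gm11102, Mki67ip, Tmem177, Gm101, Ddx18, Dbi, 3110009E18Rik, and in the closing section Sctr and Tmem37) were named after their values were seen. The members, lists and the way domains were called were chosen with earlier results of these data known. Alternatives covered bin size, KR values, viewpoint width, the distance expectation, low bins (under 25% of the median total), region limits and thresholds. For single bin pairs and counts of partners the KR values give the main value by construction, so an unchanged value there is no check.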

Additional observations from a re-analysis of the deposited data

How the results depend on the processing

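Of 555 alternative values for 77 results, 418 moved by less than the counting interval, 126 moved further and 11 were counted as turned. The 418 include the KR values of single bin pairs and of partner counts, which equal the main value by construction. Some bin pairs also stand under 2 results, such as C1ql2 with Dbi and with 3110009E18Rik, which share a bin. The 418 therefore overstate how much was checked. A turn was counted only where the interval of the main value left out 1, so more values than these crossed 1. C1ql2 with the strongest En1 partner bin went from 1.39 to 0.838 with distance alone and is among the 418. Steap3 with C1ql2 went from 0.864 to 1.12 in 5 kb bins and is among the 126. Counts of enriched partners carry no interval and were sorted by the size of the change. Contacts with the En1 domain stayed below expectation, the own-domain share stayed above it, and the step stayed below 1 under every alternative tried. The domain limits were called as minima of contact on this same map, so these directions were partly fixed in advance. The ratio with the Insig2-Ddx18 domain also stayed above 1, but for C1ql2 its interval held 1 with distance alone (0.981 to 1.15). The cause of the changes was not tested. The lower 5 kb of the Steap3 bin and the alternatives for the Insig2-Ddx18 domain were chosen after seeing the data. No paired analysis was possible because the 2 samples were deposited as 1 merged map, which also allows no sample to be left out. Another annotated start could not be run at 10 kb, since all coding starts of a member share a bin. Depth limits single bin pairs most: few hold over 100 read pairs.

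For the En1 domain the ratio was 0.821 (C1ql2) in 5 kb bins, 0.554 (Marco) with 1 more bin on each side of the viewpoint, 0.870 (C1ql2), 0.658 (Marco) and 0.883 (Steap3) with the median per distance, and 0.439, 0.857 and 0.669 with distance alone. For the En1 start bin it was 0.448 (C1ql2) and 0.342 (Steap3) in 5 kb bins, 0.306 (Marco) with the wider viewpoint, and 0.472 (C1ql2) and 0.583 (Marco) with distance alone. For the Insig2-Ddx18 domain it was 2.15 (C1ql2), 1.85 (Marco) and 2.17 (Steap3) in 5 kb bins, 1.80 (Marco) with the wider viewpoint, 2.21 (Marco) and 2.17 (Steap3) with the expectation from the whole map, 2.24, 2.38 and 2.27 (C1ql2, Marco, Steap3) with the median, and 1.06, 2.58 and 1.67 with distance alone.

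Observed over expected share with the En1 domain was 0.871 (C1ql2), 0.547 (Marco) and 0.669 (Steap3) in 5 kb bins, 0.729, 0.598 and 0.771 with the wider viewpoint, 0.738 (C1ql2) and 0.812 (Steap3) with the median, 0.736 and 0.792 with distance alone, and 0.778 (Steap3) from the whole map. For the own domain the same quotient was 1.03 (C1ql2), 1.14 (Marco) and 1.09 (Steap3) in 5 kb bins, 1.13 (C1ql2) and 1.14 (Marco) with the wider viewpoint, 1.11, 1.04 and 1.08 (C1ql2, Marco, Steap3) from the whole map, 1.10, 1.04 and 1.07 with the median, 1.14 (Marco) and 1.14 (Steap3) with distance alone, and 1.08 (Marco) and 1.15 (Steap3) within 1 Mb. For the higher side it turned for C1ql2 to 1.11 in 5 kb bins, 1.10 with the wider viewpoint and 1.07 from 50 kb on, and for Marco to 1.07 in 5 kb bins. Other values of that side were 0.941 and 0.894 for C1ql2 (distance alone, within 1 Mb), 0.8497, 0.877 and 0.810 for Marco (wider viewpoint, distance alone, from 50 kb on), and 1.05, 1.09, 0.962, 1.12 and 1.06 for Steap3 (5 kb bins, wider viewpoint, distance alone, from 50 kb on, lower 5 kb of its bin).

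The step, above over below, was 0.376 (C1ql2) and 0.393 (Marco) with the wider viewpoint, and for Marco 0.337 in 5 kb bins, 0.394 with distance alone and 0.386 in 50 kb windows. For Steap3 it was 0.450 in 200 kb windows. With distance alone C1ql2 and Marco turned to 0.847. Steap3 and C1ql2 had 0.363 with distance alone, 1.12 in 5 kb bins and 1.09 with the lower 5 kb of the Steap3 bin. Pairs of single starts turned in 5 kb bins for C1ql2 with Sctr (1.00), and for Steap3 with Clasp1 (0), Gm101 (1.00) and Tmem37 (2.01). With the wider viewpoint Marco and Mki67ip turned to 1.46, and Steap3 with the strongest En1 partner bin turned to 0.953 in 5 kb bins. Counts of enriched partners (C1ql2, Marco, Steap3) were 8, 20 and 1 in 5 kb bins, 1, 60 and 11 with distance alone, 31, 62 and 35 with a threshold of 1.2, and 2, 9 and 0 with a threshold of 2. For C1ql2 the count was 29 with the wider viewpoint and 20 with the median.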
